A study of Mus musculus with 18 samples.

Results

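The proteasome subunit genes were read in the liver of 18 males of C57BL/6J, an inbred mouse strain, aged 62 weeks, on Affymetrix Mouse Genome 430 2.0 arrays. Members were the genes whose symbol is Psma, Psmb, Psmc, Psmd or Psme with a number, apart from the immunoproteasome genes Psmb8, Psmb9 and Psmb10. This gave 39 genes of 18193, each read by its brightest probe set of 84 in all. The members comprised 8 alpha and 8 beta subunits of the 20S core, 6 ATPases and 11 other subunits of the 19S particle, 3 chaperones of 19S assembly and 3 activator genes. Of the 39, 38 passed the filter on dim signals and were tested among 14201 genes.

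From 5 weeks of age mice ate a high-fat diet (60% fat) or a low-fat diet (10% fat), and 3 mice of each of 6 groups were arrayed. HF+CR mice ate the high-fat diet under 30% calorie restriction, HF+Ex mice ate it freely with a running wheel for voluntary exercise, and HF mice ate it freely with no wheel. LF+CR, LF+Ex and LF mice were kept in the same ways on the low-fat diet. Mice of all groups were housed singly, the ration of each restricted group was set from what the freely fed group of its diet ate, and the labels name no altered allele. The comparisons ask whether dietary fat, restriction and running changed the subunit transcripts late in life, and whether the answer to restriction or running depended on the diet.

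The proteasome degrades proteins that carry ubiquitin chains. Its 20S core is a barrel of stacked rings, with alpha subunits at the gates and beta subunits, some of them proteolytic, within. The 19S particle caps the barrel, binds and unfolds the substrate with its ATPases and removes the ubiquitin, while the activators of the Psme family open the gate without needing ubiquitin. The transcription factor Nfe2l1 is known to raise many subunit genes together when proteasome activity falls short.

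The arrays had mean intensities between 306.9 and 309.8, while their medians spanned 0.15 on the log2 scale. The 6 hepatocyte markers read, Alb and Ttr among them, summed to at least 67340 on every array. On 3 arrays, LF+CR 2, HF 1 and HF+Ex 3, the first principal component over all genes (27% of the variance) stood at 19.14 to 23.63, against at most 8.52 on the others. On 4 other arrays pancreatic transcripts stood out: Clps, for colipase, stood at 599 in HF+Ex 1, at 386 in LF+CR 1, at 215 in LF+Ex 3 and at 260 in LF 1, but at 52.6 to 62.1 elsewhere. The pancreatic genes Cela2a, Cpa1 and Cpb1 were likewise highest on these 4 arrays. Another, Ctrb1, also read 371 on HF+CR 1, against 241.5 on LF+Ex 3. On LF+Ex 3 the pancreatic genes Cela3b (163) and Prss2 (193) lay within the range of the arrays outside the 4. Calls of named genes that were lost without the 3 arrays or without the 4 are given below with the values without them. The labels name no time of day or fed state at sampling.

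Nearly all subunit genes were well above background in the liver, and the 2 dim ones are known from other tissues. Of the 38 tested members, 37 lay above the dim threshold on all 18 arrays. Psmb11, the catalytic subunit of the thymus proteasome, read 82.1 to 112 and passed it on 13 arrays, and Psma8, a subunit of the testis, read 64.1 to 85.7 and passed it on none. The other 37 had mean intensities between 256 for Psmd10, a 19S chaperone, and 2942 for the core subunit Psma3, which are signals of separate probe sets and give no order of abundance.

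**Figure D1:**
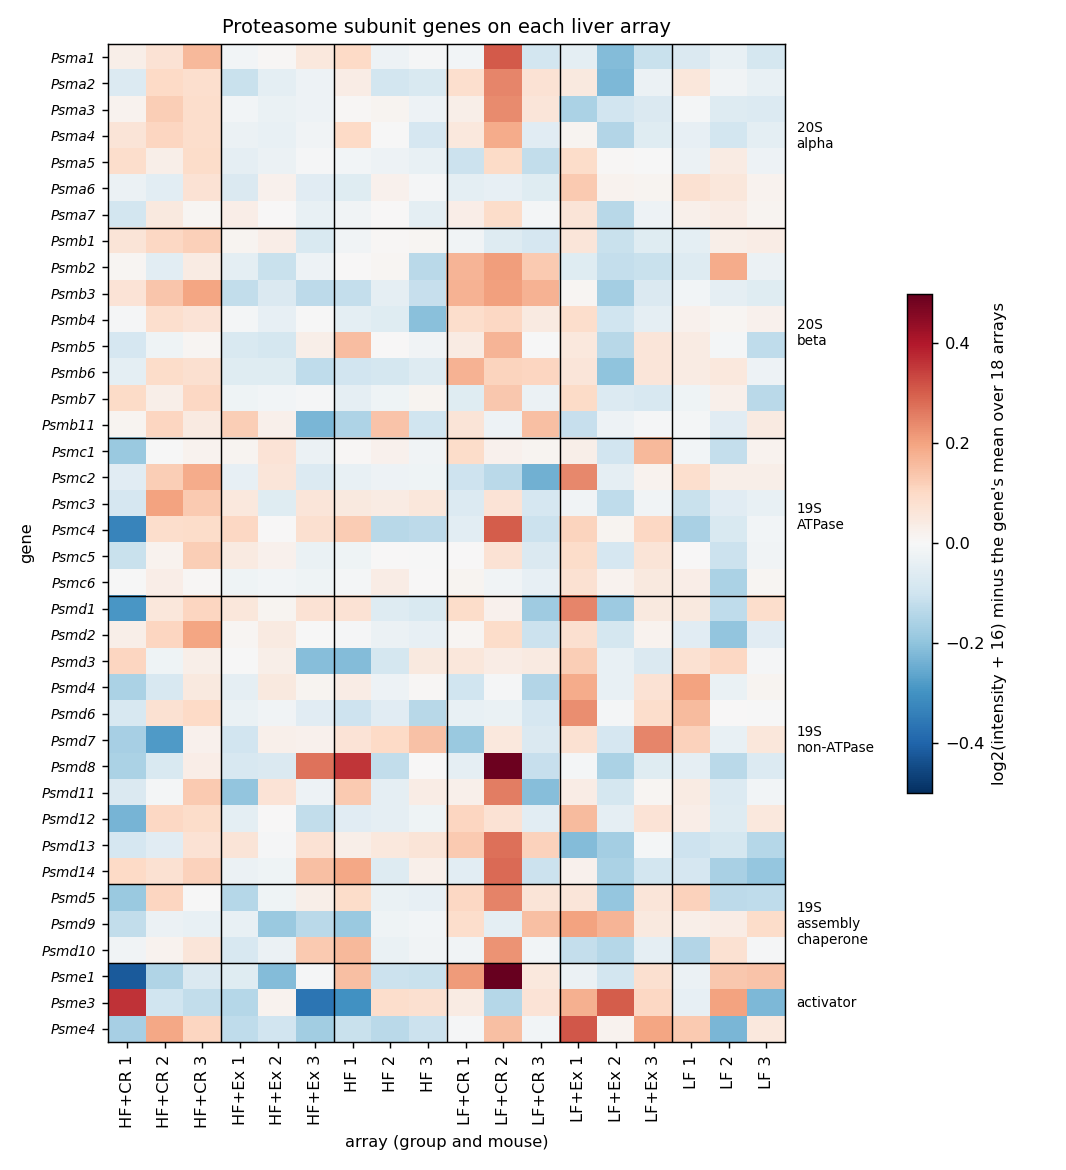
Colour map of the 38 tested subunit genes (rows, by particle) on the 18 arrays (columns, by group); colour is log2(intensity + 16) minus the gene's own mean over the arrays, and the scale stops at 0.5 on either side. Most cells are pale, and LF+CR 2 is the column of highest values, with Psmd8 and Psme1 deepest.

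Across the 6 groups the subunit transcripts stood nearly level. The range between a gene's highest and lowest group mean had a median of 0.18 on the log2 scale over the members, against 0.23 over all genes tested. It ran from 0.06 for the ATPase Psmc5 to 0.48 for the activator subunit Psme1. No member had a range above 1, which 2.11% of all genes had, and 10 of 38 lay above the median of all genes. The members also varied little among mice of a group: the median within-group SD was 0.08, against 0.11 over all genes. Neither the range nor the SD was compared with genes matched for intensity. A moderated F test over the 6 groups in limma passed 2 members, 5.26%, where 14.3% of all genes passed: the core subunit Psmb3 (adjusted p = 0.0035) and the 19S subunit Psmd13 (adjusted p = 0.0227).

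**Figure D2:**
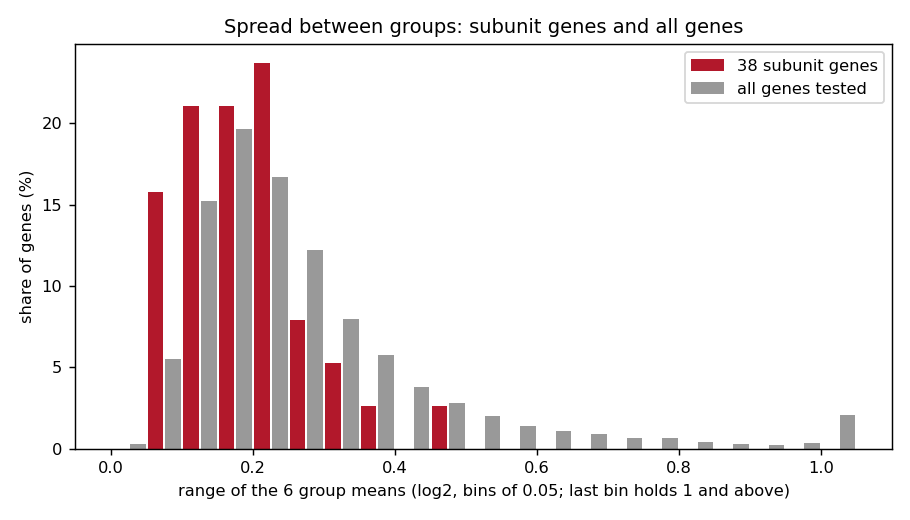
Share of genes (%) by the range of their 6 group means on the log2 scale, for the 38 subunit genes (red) and all genes tested (grey); the last bin holds ranges of 1 and above. The members end at 0.48, while the grey bars run on past it.

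Calorie restriction raised 2 subunit genes on the low-fat diet and 1 on the high-fat diet at an adjusted p under 0.05, and lowered none. In LF+CR against LF the called members were Psmb3 and Psmd13, 5.26% of 38, where 5.57% of all genes were called. In HF+CR against HF the called member was Psmb3, 2.63% of 38, where 6.07% were called. Counts of 2 and 1 among 38 members are too small to set the members' share apart from that of all genes on either diet. The groups did not overlap for 9 of 38 members in LF+CR against LF, where this held for 20.2% of all genes, and for 9 of 38 in HF+CR against HF, where it held for 31.3%. The 95% interval of the fold change lay within 0.5 of zero on the log2 scale for 37 of 38 members in LF+CR against LF (all but the 19S subunit Psmd8, whose upper bound was 0.50) and for 38 of 38 in HF+CR against HF.

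Psmb3, a structural beta subunit of the core, separated restricted from unrestricted mice on both diets and was the only member called on both. It read 1399, 1469 and 1531 in HF+CR livers, against 1226, 1294 and 1229 in HF livers. On the low-fat diet it read 1507, 1541 and 1505 in LF+CR livers, against 1322, 1292 and 1278 in LF livers. All 6 restricted arrays lay above all 12 others, since the running groups read 1222, 1268 and 1218 in HF+Ex and 1343, 1185 and 1266 in LF+Ex. By the probe sets used, such a separation, with restriction on top, held for 2 members, Psmb3 and Psma3, and for 0.521% of all genes. By the other probe set of Psmb3 it held within each diet but not over both. There HF+CR 1 read 961, under LF 1 (979) and LF+Ex 1 (986).

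The rise of Psmb3 was small and alike on the 2 diets. It was 0.23 on the log2 scale (SE 0.05, 95% interval 0.11 to 0.34) or 17.1% in HF+CR against HF, with a limma adjusted p of 0.0224. In LF+CR against LF it was 0.22 (SE 0.05, interval 0.11 to 0.34) or 16.8%, with a limma adjusted p of 0.0230. The difference between the diets was 0.00 (interval -0.16 to 0.17, limma adjusted p = 0.978). The gene's other probe set moved by 0.24 in HF+CR against HF and by 0.21 in LF+CR against LF. The low-fat call was lost without LF 2, LF 3, LF+CR 1 or LF+CR 2 (limma adjusted p 0.0625 to 0.0823), the high-fat call without HF 1, HF 3, HF+CR 2 or HF+CR 3 (0.0593 to 0.0991), while the fold change kept its direction and size (0.20 to 0.26 over all single omissions). Without the 4 arrays with pancreatic transcripts it was 0.23 in HF+CR against HF (limma adjusted p = 0.0666) and 0.24 in LF+CR against LF (0.149), and without the 3 arrays apart on the first component 0.21 (0.0874) and 0.21 (0.0910). Once the medians of the arrays had been set equal, the rise in HF+CR against HF was 0.17 and not called (limma adjusted p = 0.128).

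Some hepatocyte markers were higher in the same comparisons. Cps1 and Tat, which serve nitrogen and amino acid breakdown in hepatocytes, were the 2 of 6 hepatocyte markers called in HF+CR against HF and in LF+CR against LF, both higher. The other 4 did not pass and differed in sign: Alb had -0.10, Ttr -0.06, Apoa1 0.10 and Apoh 0.06 in HF+CR against HF, and 0.12, 0.15, -0.02 and 0.00 in LF+CR against LF in the same order. The summed intensity of the 6 ran from 71462 to 74747 in HF+CR and 69158 to 70547 in HF, and from 77248 to 78836 in LF+CR and 70444 to 71457 in LF. In HF+CR against HF, 4 of 6 interferon-response genes (Ifit1, Ifit3, Rsad2 and Usp18) were called lower, with a list median of -0.69. The endothelial gene Lyve1 was 1 of 6 sinusoidal endothelium markers called, at -1.10, and 6 Kupffer cell markers had a median of -0.52 with none called. The 6 Kupffer cell markers summed to 3712 to 4386 in HF+CR and 4720 to 7326 in HF. The 6 endothelial markers summed to 3013 to 3199 in HF+CR and 3242 to 3460 in HF. None of these 3 lists had a called gene in LF+CR against LF. The part of these markers in the Psmb3 result was not tested.

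**Figure D3:**
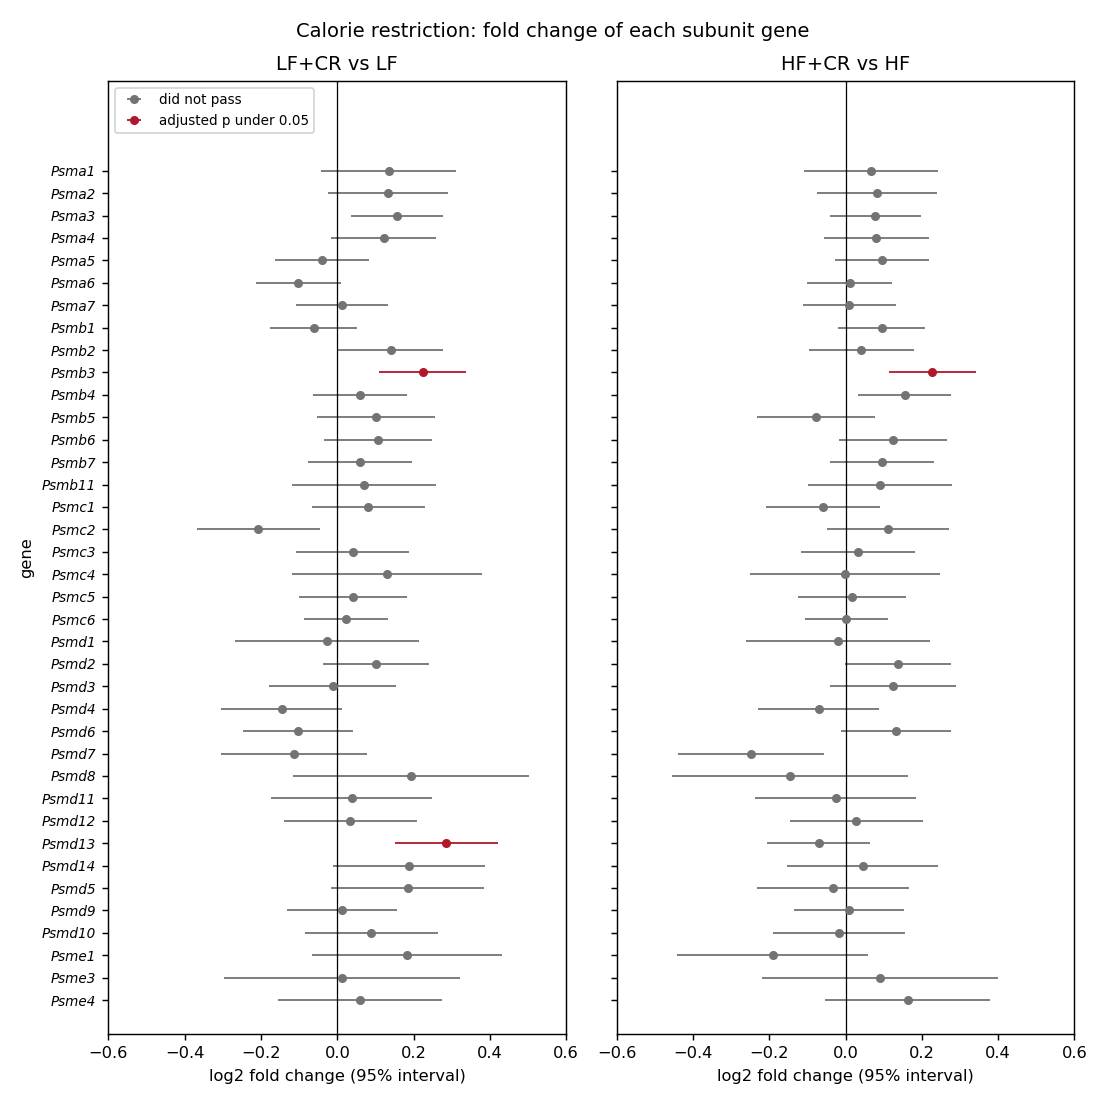
Log2 fold change under restriction (points) with its 95% interval (bars) for each of the 38 subunit genes, LF+CR against LF on the left and HF+CR against HF on the right; red marks an adjusted p under 0.05. Psmb3 is red in both panels, at 0.22 and 0.23, and Psmd13 only on the left, at 0.29, while most other intervals cross zero.

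By the probe sets used, the other core subunits had small fold changes that were mostly positive under restriction, without passing the test. Of 15 core members, the dim Psmb11 among them, 14 had a positive fold change in HF+CR against HF (median 0.08) and 12 in LF+CR against LF (median 0.10). Second bright probe sets of Psma6, Psma7 and Psmb4 gave -0.03, -0.08 and -0.05 in HF+CR against HF, where those used gave 0.01, 0.01 and 0.15. Those of Psma5 and Psmb3 stayed positive there, at 0.04 and 0.24. In LF+CR against LF those of Psma7 and Psmb4 gave 0.26 and 0.22, where those used gave 0.01 and 0.06. Of 17 subunits of the 19S particle, 9 were positive in HF+CR against HF (median 0.00) and 11 in LF+CR against LF (median 0.04). As a mean deviation from each gene's own mean over all arrays, the 19S particle stood at -0.10, 0.02 and 0.09 on HF+CR 1, 2 and 3. The core stood at 0.01, 0.06 and 0.08 on the same arrays, so the 2 particles differed mainly on HF+CR 1. Over all genes tested, 61.0% were positive in HF+CR against HF (median 0.04) and 47.0% in LF+CR against LF (median -0.01). Whether core and 19S differed was not tested, and members of a complex are not replicates. Among the proteolytic subunits, Psmb5 had -0.08 in HF+CR against HF and 0.10 in LF+CR against LF, Psmb6 had 0.12 and 0.11, and Psmb7 had 0.10 and 0.06 in the same order, none passing (limma adjusted p 0.254 to 0.723).

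Psma3, an alpha subunit of the gate ring, came next to Psmb3 in this pattern. It read 2970, 3198 and 3118 in HF+CR livers, against 2948, 2961 and 2883 in HF livers. It read 2996, 3462 and 3066 in LF+CR livers, against 2920, 2807 and 2798 in LF livers. The restricted arrays lay above the rest by as little as 2970.05 against 2960.55. Neither difference passed (0.08, limma adjusted p = 0.393, and 0.16, limma adjusted p = 0.13).

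The sequences before the start sites of 3 members are shown to let them be compared. Psmb3 and Psma3 were highest on all restricted arrays by the probe sets used, and Psmd13 was called on the low-fat diet. Each holds the 250 bases before the first listed start of the gene, from RefSeq on GRCm38.p6, plus strand, at chr11:97703184-97703433 for Psmb3, chr12:70974373-70974622 for Psma3 and chr7:140882144-140882393 for Psmd13. Capitals mark the motif CCAAT, searched on both strands:
Psmb3: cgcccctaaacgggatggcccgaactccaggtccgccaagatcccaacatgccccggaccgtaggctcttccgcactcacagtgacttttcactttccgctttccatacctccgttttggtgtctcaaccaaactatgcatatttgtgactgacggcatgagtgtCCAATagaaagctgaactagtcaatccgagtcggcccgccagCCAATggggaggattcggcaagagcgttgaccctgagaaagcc
Psma3: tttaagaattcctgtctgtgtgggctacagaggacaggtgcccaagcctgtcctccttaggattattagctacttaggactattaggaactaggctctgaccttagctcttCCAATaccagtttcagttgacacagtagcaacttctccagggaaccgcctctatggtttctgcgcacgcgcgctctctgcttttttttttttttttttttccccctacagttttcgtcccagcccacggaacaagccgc
Psmd13: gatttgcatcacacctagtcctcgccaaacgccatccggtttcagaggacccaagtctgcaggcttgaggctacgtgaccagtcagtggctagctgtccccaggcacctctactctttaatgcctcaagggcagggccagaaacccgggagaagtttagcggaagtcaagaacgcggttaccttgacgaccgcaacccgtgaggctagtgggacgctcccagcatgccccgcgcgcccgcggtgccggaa
Psmb3 had CCAAT with its first letter 85 and 43 bases before the start, Psma3 had it 139 bases before the start, and the Psmd13 window held no match.

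Of the 39 members, 32 had an entry with such a window. The motif CCAAT occurred in 13 of these, 40.6%, against 34.5% of 27018 promoters of the same length. TGACNNNGC, the letters of the antioxidant response element to which Nfe2l1 and its relatives are known to bind, occurred in 5 (15.6%, against 10.2%): Psmb5, Psmb6, Psmc6, Psmd12 and Psmd9. The E-box CACGTG occurred in 3 (9.38%, against 6.05%): Psma4, Psmd9 and Psme3. Both strands were searched for each motif, and 0 matches of different motifs overlapped in the members' windows. The median GC content was 57.6% in the members' windows and 52.0% in all. These counts describe letters in a window.

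Psmd13, a subunit of the 19S lid, rose with restriction on the low-fat diet. It read 679, 751 and 670 in LF+CR livers, against 574, 581 and 559 in LF livers, and the groups did not overlap. It read 583, 594 and 651 in HF+CR livers, against 631, 641 and 648 in HF livers, and these overlapped. The rise in LF+CR against LF was 0.29 (SE 0.06, 95% interval 0.15 to 0.42) or 21.9%, with a limma adjusted p of 0.0149. In HF+CR against HF the fold change was -0.07 (SE 0.06, limma adjusted p = 0.5003).

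The answer of Psmd13 to restriction differed between the diets. Of 38 members it was the 1 (2.63%) called in the interaction of restriction with diet, where 5.75% of all genes were called. The restriction effect on the high-fat diet minus that on the low-fat diet was -0.36 (SE 0.09, 95% interval -0.55 to -0.16, limma adjusted p = 0.03). A second probe set of the gene read 538, 593 and 519 in LF+CR, against 449, 452 and 445 in LF, a difference of 0.28. Another, dimmer one went the other way by -0.22. With the gene's probe sets averaged, the interaction was -0.12 (limma adjusted p = 0.300) and the rise in LF+CR against LF was 0.08 (limma adjusted p = 0.42). The rise was lost without LF 3 (limma adjusted p = 0.0604) or LF+CR 2 (0.0675), and the interaction without LF 1, LF 3, LF+CR 2, HF 1, HF 3, HF+CR 1 or HF+CR 2 (0.0502 to 0.0757). Without the 4 arrays with pancreatic transcripts the rise was 0.31 (limma adjusted p = 0.0754) and the interaction -0.38 (0.0735), and without the 3 arrays apart on the first component they were 0.24 (0.0871) and -0.32 (0.126).

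**Figure D4:**
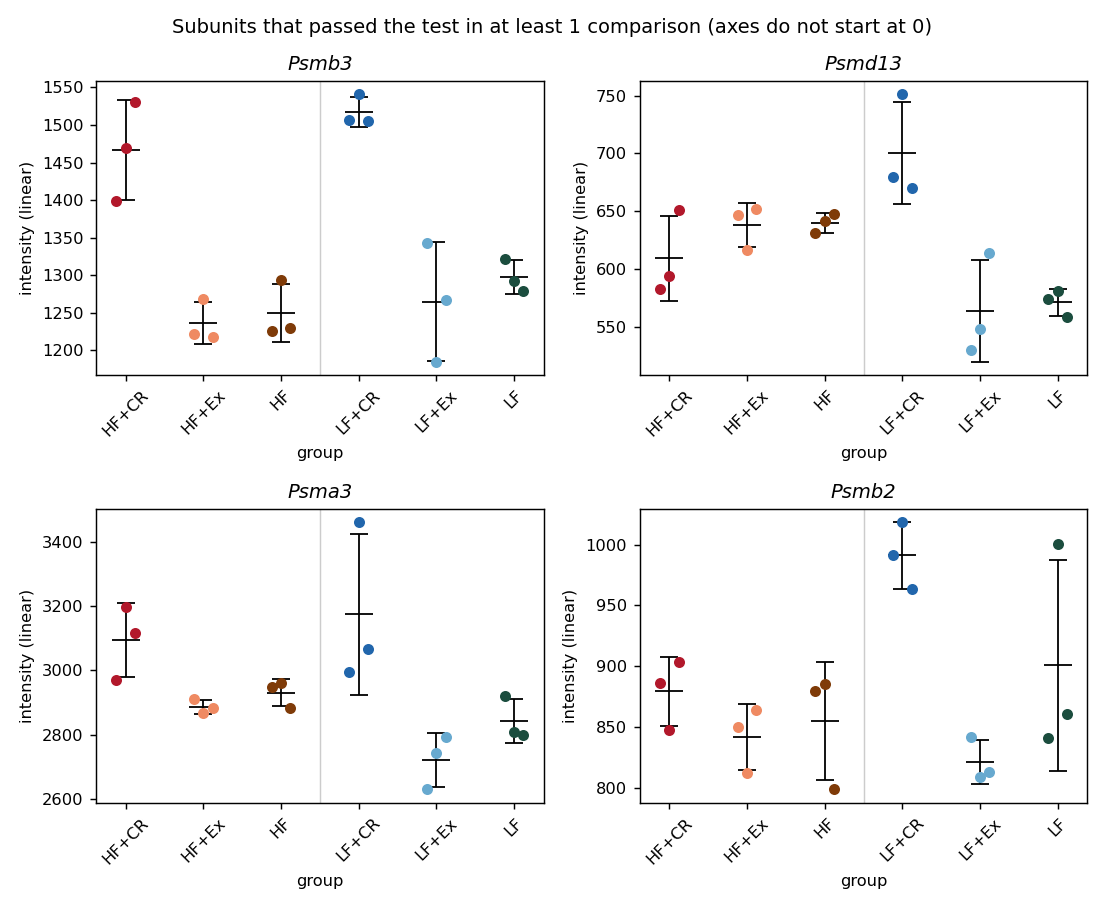
Intensity (linear, axes not from 0) of Psmb3, Psmd13, Psma3 and Psmb2 in each mouse (points), with the mean and SD of 3 mice (bars), by group. For Psmb3 the 6 restricted mice, at 1399 to 1541, lie above the 12 others, at 1185 to 1343; for Psmd13 the LF+CR mice, at 670 to 751, lie above all others.

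Other 19S subunits had fold changes under restriction that did not pass. Psmc2, an ATPase of the base, averaged 1334 ± 66.2 in LF+CR and 1540 ± 34.7 in LF (SD, n = 3 each), a fold change of -0.21 (limma adjusted p = 0.135), and a second bright probe set had -0.10. In HF+CR against HF the fold change of Psmc2 was 0.11 (limma adjusted p = 0.363), and its interaction was 0.32 (limma adjusted p = 0.0904). Psmd7, a lid subunit that pairs with the deubiquitinase Psmd14, averaged 648 ± 70.7 in HF+CR and 769.7 ± 21.6 in HF (SD, n = 3 each), a fold change of -0.25 (limma adjusted p = 0.108). Psmd14 itself had 0.04 in HF+CR against HF and 0.19 in LF+CR against LF (limma adjusted p 0.788 and 0.303). By the probe set used, intensities of Psmc6, an ATPase, varied least of the members within groups, with an SD of 0.05 on the log2 scale. Its group means were highest in LF+Ex, at 1760 ± 36.2, and lowest in LF, at 1661 ± 118 (SD, n = 3 each). Another probe set of Psmc6, with a mean intensity of 831, gave -0.28 in LF+CR against LF and -0.40 in LF+CR against LF+Ex. The one used gave 0.02 and -0.06 in the same order, and the dimmest one gave -0.14 and -0.30. The other probe sets were not tested singly.

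Restriction and running were also compared directly. In LF+CR against LF+Ex 4 of 38 members were higher, 10.5%, where 9.31% of all genes were called: Psmb3, Psmd13, Psma3 and Psmb2. Psmd13 read 530, 548 and 614 in LF+Ex livers, under the 670 to 751 of LF+CR livers, a difference of 0.31 (SE 0.06, limma adjusted p = 0.00635). With its probe sets averaged, the difference of Psmd13 was 0.12 and did not pass (limma adjusted p = 0.15). Psmb3 was higher by 0.26 (SE 0.05, limma adjusted p = 0.00583). In HF+CR against HF+Ex 1 of 38 was higher, 2.63%, where 2.71% of all genes were called: Psmb3, by 0.24 (SE 0.05, limma adjusted p = 0.0254). The Psmb3 call in HF+CR against HF+Ex was lost without HF+CR 2, HF+CR 3, HF+Ex 1 or HF+Ex 3 (limma adjusted p 0.0635 to 0.112). It was also lost without the 4 arrays with pancreatic transcripts (0.176) and without the 3 arrays apart on the first component (0.115), and the Psmb3 call in LF+CR against LF+Ex was lost without the 4 (0.0856). These comparisons share the restricted mice with the earlier ones.

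The other 2 members called between LF+CR and LF+Ex belong to the core. Psma3 read 2630, 2743 and 2792 in LF+Ex livers, all under the LF+CR livers given above, a difference of 0.22 (SE 0.06, limma adjusted p = 0.0230). Its other, dimmer probe set had -0.14, and with both averaged the difference was 0.04 (limma adjusted p = 0.627). Psmb2, a structural beta subunit, read 991, 1019 and 964 in LF+CR livers, against 842, 808 and 812 in LF+Ex livers, a difference of 0.27 (SE 0.07, limma adjusted p = 0.0168). In LF livers Psmb2 read 841, 1000 and 861, so that LF 2 lay among the restricted mice, and LF+CR against LF gave 0.14 (limma adjusted p = 0.262). On the high-fat diet Psmb2 read 886, 848 and 904 in HF+CR, 850, 812 and 864 in HF+Ex and 879, 886 and 798 in HF, which overlapped. The Psma3 call was lost without LF+CR 2, LF+Ex 1 or LF+Ex 2, and that of Psmb2 without LF+CR 1, LF+CR 2, LF+Ex 2 or LF+Ex 3 (limma adjusted p 0.0518 to 0.102 over both). Without the 4 arrays with pancreatic transcripts Psma3 had 0.28 (limma adjusted p = 0.0649) and Psmb2 0.26 (0.138), and without the 3 arrays apart on the first component 0.15 (0.123) and 0.25 (0.0715).

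No subunit gene passed for dietary fat. In HF against LF 0 of 38 members were called with limma, where 0.894% of all genes were, and 3 had an unadjusted p under 0.05, where 16.3% of all genes did. Those 3 were Psmb4, a structural core subunit (-0.12), the lid subunit Psmd6 (-0.15) and Psmd13 (0.16), with limma adjusted p of 0.299, 0.279 and 0.233. By the probe sets used, the fold changes of the 38 ran from -0.15 for Psmd6 to 0.20 for Psmd14, and every interval lay within 0.5 of zero. Probe sets not used for Psmc6, with mean intensities of 831 and 163, gave 0.35 and 0.24, where the one used gave 0.05. The next brightest probe sets of Psmb4, Psmd6 and Psmd13 gave 0.04, -0.05 and 0.17.

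No subunit gene passed for running either. In LF+Ex against LF 0 of 38 were called, where 0.00704% of all genes (1 gene) were. No member had an unadjusted p under 0.05 there, where 3.95% of all genes did. In HF+Ex against HF 0 of 38 were called, where 0% of all genes were, and 0 members had an unadjusted p under 0.05, where 2.45% of all genes did. The interaction of running with diet called 0 of 38, where 0.00704% of all genes were called, and 0 had an unadjusted p under 0.05, where 2.52% did. The fold changes ran from -0.13 for Psmb2 to 0.22 for Psme3 in LF+Ex against LF, and from -0.12 for Psmd7 to 0.11 for the ATPase Psmc4 in HF+Ex against HF. In LF+Ex against LF 4 of 15 core members and 15 of 17 members of the 19S particle had a positive fold change, with medians of -0.04 and 0.03, where 41.6% of all genes were positive.

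The activator genes Psme1, Psme3 and Psme4 had the widest ranges of group means of the members, at 0.48, 0.36 and 0.31 on the log2 scale. Within groups Psme3 (SD 0.20) and the 19S subunit Psmd8 (0.20) varied most, ahead of Psme1 and Psmc4 (0.15 each) and Psmd1 (0.15). Psme1, the alpha subunit of the activator that works with the immunoproteasome, read 973, 1174 and 1240 in HF+CR livers, against 1452, 1211 and 1206 in HF livers. It read 1517, 1891 and 1354 in LF+CR livers, against 1278, 1435 and 1443 in LF livers. The fold changes, -0.19 on the high-fat diet and 0.18 on the low-fat diet, did not pass, nor did their difference of -0.37 (SE 0.17, limma adjusted p = 0.186). The groups overlapped on both diets.

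Psme3, whose product forms a nuclear activator, had the widest spread among mice of a group (SD 0.20 on the log2 scale). It read from 318 to 451 within HF+CR, and over all arrays from 266 on HF+Ex 3 to 451 on HF+CR 1. A second probe set of Psme3 gave 0.23 where the one used gave -0.20 in LF+CR against LF+Ex. Psme4, whose product is the large nuclear activator, averaged 1381 ± 177 in HF+CR and 1225 ± 12.9 in HF, and 1374 ± 91.2 in LF+CR and 1323 ± 169 in LF (SD, n = 3 each). Among the 19S chaperones, Psmd9 averaged 523 ± 19.3 in HF+CR, 503 ± 27.5 in HF+Ex and 520.03 ± 35.4 in HF, against 574 ± 41.3 in LF+CR, 605 ± 34.8 in LF+Ex and 568 ± 13.3 in LF. In HF against LF the fold change of Psmd9 was -0.13 and did not pass.

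The immunoproteasome genes, which replace the proteolytic core subunits in immune cells and under interferon, were set beside the members. Psmb9 read 218, 395 and 201 in LF+CR livers, against 382, 542 and 425 in LF livers, with LF+CR 2 above LF 1. It fell by 0.74 on the log2 scale (SE 0.18, limma adjusted p = 0.0212) in LF+CR against LF, and by 0.92 (limma adjusted p = 0.00352) in LF+CR against LF+Ex, where the groups did not overlap. Without the 4 arrays with pancreatic transcripts that second fold change was -0.86 (limma adjusted p = 0.0592), and with only the compared groups fitted it was not called either (0.0713). The LF+CR against LF call was lost without LF 2, LF 3, LF+CR 1 or LF+CR 3 (limma adjusted p 0.0508 to 0.0965) and without the 4 arrays with pancreatic transcripts (0.128). Without LF+CR 2, Psmb9 fell by 1.03. In HF+CR livers Psmb9 read 397, 371 and 372, against 498, 435 and 457 in HF livers, a fold change of -0.27 (limma adjusted p = 0.338).

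Neither Psmb8 nor Psmb10 passed under restriction. Psmb8 had -0.44 in HF+CR against HF (limma adjusted p = 0.220) and -0.09 in LF+CR against LF (limma adjusted p = 0.904). Psmb10 had -0.24 and 0.27 in the same comparisons (limma adjusted p 0.398 and 0.456). LF+CR 2 was the highest of the 18 arrays for Psmb8, at 635, for Psmb10, at 887, and for Psme1. Liver RNA holds several cell types, so that fewer cells of a type and less RNA per cell cannot be told apart. The summed intensity of 6 leukocyte markers was 1410 to 2573 in LF+CR and 1670 to 2292 in LF, and none of the 6 passed there. It was 1466 to 1754 in HF+CR and 2090 to 2879 in HF, again with none passing. The sum of 6 interferon-response genes was 1139 to 1245 in HF+CR and 1820 to 2188 in HF, where 4 of the 6 were called lower, and 1191 to 1744 in LF+CR and 1220 to 1931 in LF, where none was called. The part of these markers in the values of Psmb8, Psmb9 and Psmb10 was not tested.

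**Figure D5:**
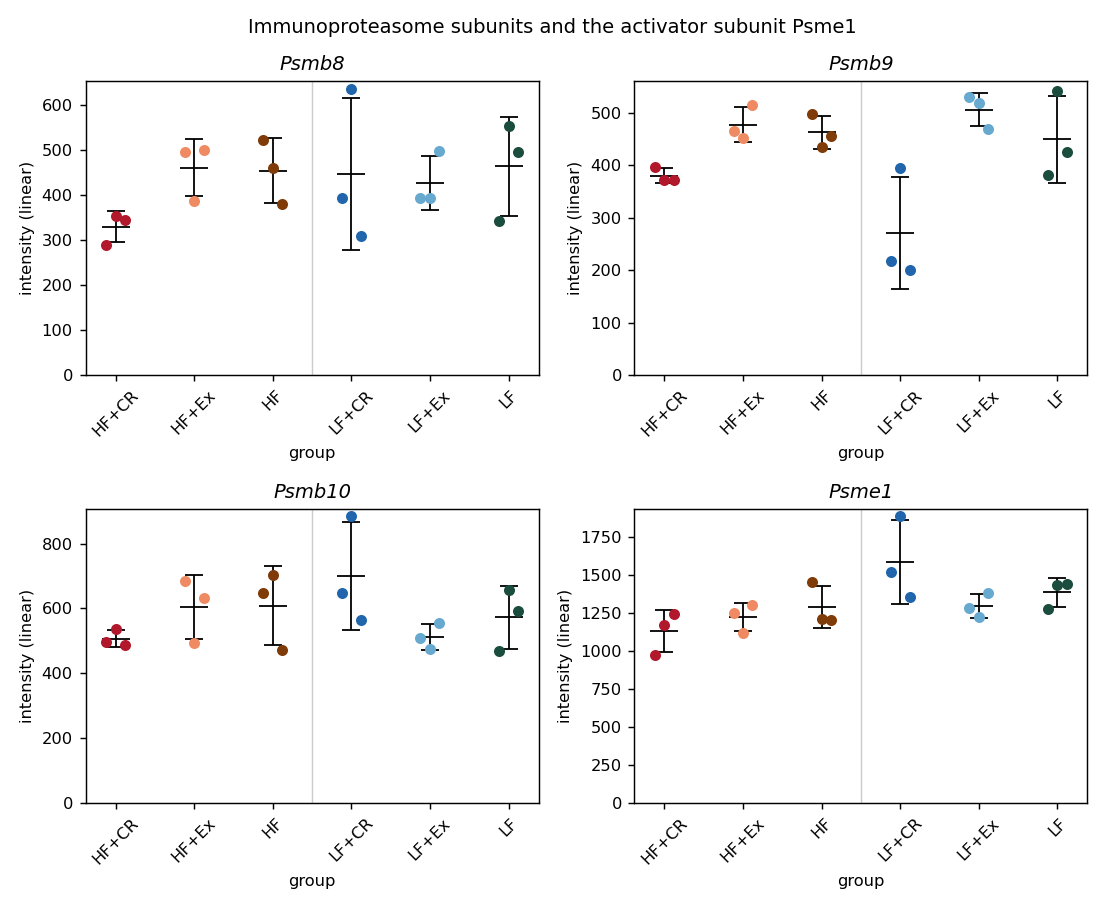
Intensity (linear, from 0) of Psmb8, Psmb9, Psmb10 and the activator gene Psme1 in each mouse (points), with the mean and SD of 3 mice (bars), by group. For Psmb9 the LF+CR mice stand at 201, 218 and 395, and for the other 3 genes the highest point of the plot is an LF+CR mouse.

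Around the proteasome, a list of 39 genes for the immunoproteasome, core assembly, bound deubiquitinases and cofactors, ubiquitin shuttles, ubiquitin and its segregase, and control of subunit transcription was read, of which 30 were tested. Of the 30, 2 were called in LF+CR against LF, where 5.57% of all genes were. LF+CR against LF+Ex also called 2 (9.31% of all genes), the interaction of restriction with diet called 1 (5.75%) and the F test called 4 (14.3%). The F test passed Psmb9, Psmg4, Uchl5 and Psmg2, a chaperone of core assembly (limma adjusted p = 0.0324), and Psmg2 was called in no single comparison. Txnl1, a thioredoxin-like protein bound to the 19S particle, rose by 0.36 (SE 0.09, limma adjusted p = 0.0228) in LF+CR against LF, with 2242, 2782 and 2058 against 1873, 1807 and 1784. Its call was lost without LF 2, LF 3 or LF+CR 2 (limma adjusted p 0.0654 to 0.0791), without the 4 arrays with pancreatic transcripts (0.115) and without the 3 arrays apart on the first component (0.07002), and with its probe sets averaged the change was 0.08. Without LF+CR 2 the change was 0.24. A second bright probe set of Txnl1 gave 0.32 in LF+CR against LF, and one with a mean intensity of 399 gave -0.07. The rest of its probe sets, also part of the average, were above the dim threshold on 0 arrays. Psmg4, a chaperone of core assembly, was higher by 0.30 (limma adjusted p = 0.0137) in LF+CR against LF+Ex, with 475, 449 and 461 against 385, 373 and 358. This call was lost without LF+CR 1 or LF+Ex 3 (limma adjusted p 0.0564 and 0.0576) and without the 4 arrays with pancreatic transcripts (0.164). As the mean of its probe sets, of which the one not used was above the dim threshold on 0 arrays, the difference of Psmg4 was 0.16 and still called.

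Uchl5, a deubiquitinase that docks on the 19S particle, differed in its answer to restriction by diet. It read 677, 670.2 and 715 in HF+CR livers, against 757, 804 and 785 in HF livers. It read 833, 941 and 866 in LF+CR livers, against 858, 704 and 712 in LF livers. The interaction was -0.40 (SE 0.10, limma adjusted p = 0.0316), while neither diet's own change passed (-0.18, limma adjusted p = 0.132, and 0.22, limma adjusted p = 0.0995). The call was lost without any 1 of LF 2, LF 3, LF+CR 2, HF 1, HF 2, HF 3, HF+CR 1 or HF+CR 2 (limma adjusted p 0.0552 to 0.0796). It was also lost with the replicate number as a block (0.0557), with only the compared groups fitted (0.0758), with its probe sets averaged (-0.22, limma adjusted p = 0.0861) and without the 3 arrays apart on the first component (0.115). The other probe set of Uchl5 had a mean intensity of 69.2 and was above the dim threshold on 0 arrays. The average with it therefore cannot show whether the call is stable. No gene of the list passed in HF against LF, HF+CR against HF, HF+CR against HF+Ex, the running comparisons against HF or LF, or the interaction of running with diet.

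Nfe2l1, the transcription factor named above, did not pass in any comparison. It read 484, 489 and 513 in LF+CR livers, against 557, 550 and 583 in LF livers, without overlap, a fold change of -0.18 (SE 0.05, limma adjusted p = 0.0629). In HF+CR livers it read 566, 539 and 554, against 550, 539 and 515 in HF livers, which overlapped (0.05, limma adjusted p = 0.593). The array measured its transcript and not the processing of its protein.

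From mouse to mouse, the subunit genes varied together. After each group's mean was taken out, the median correlation between 2 members over the 18 arrays was 0.38 over 703 pairs, against 0.02 over all pairs of genes tested. It was 0.39 within the core (105 pairs), 0.49 within the 19S particle (136 pairs) and 0.38 between a core and a 19S member (255 pairs). The correlations were not compared with those of genes matched for intensity. The points of each correlation share the same arrays and their scaling, and without LF+CR 2 the medians were 0.36 within the core and 0.45 within the 19S particle. LF+CR 2 had the highest mean of the members, 0.13 above their mean over all arrays on the log2 scale, and LF+Ex 2 the lowest, at -0.08. On HF+CR 1 the core stood at 0.01 and the 19S particle at -0.10. The median over all genes tested was highest on that array, 0.07 above the middle of the array medians on the log2 scale. Krt19, a cholangiocyte marker, read 399 there and at most 106 on the other arrays. The 5 cholangiocyte markers summed to at most 1034 in HF+CR and to at most 761 in any other group. The part of this in the 19S values of HF+CR 1 was not tested.

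Of the 38 members, 3 were higher on the arrays that stood apart than on any other array. On LF+CR 2, HF 1 and HF+Ex 3 the lid subunit Psmd8 read at least 1983, against at most 1678 on the other arrays. Psmd14, the deubiquitinase of the lid, read at least 1236, against at most 1206, and the 19S chaperone Psmd10 read at least 281, against at most 271. All 3 arrays stood above the rest for 3.96% of all genes tested.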

How the data were processed

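Liver RNA of 18 mice was hybridised to 18 arrays. The deposited values are linear intensities per probe set, which the authors made from the scans; how they were summarised and normalized, and with which tool, is not given in the sources used here. RNA was isolated with Trizol and hybridised as biotin-labelled cRNA, per the labels' protocols.

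The intensities were used as log2(intensity + 16) with no further scaling. The medians of the arrays spanned 0.15 in log2, near the members' median range of group means (0.18). Of 45101 probe sets, 64 controls, 932 with several gene symbols and 9160 with none were left out. Each gene was read by its brightest probe set (highest mean log2 value), and tested if above the 40th percentile of an array (88.2 to 97.6) on at least 3 arrays, which removed 3992 of 18193 genes. limma 3.58.1 in R 4.3.3 fitted 1 mean per group to all arrays (12 residual and 3.64 prior degrees of freedom), with Benjamini-Hochberg adjustment over 14201 genes, threshold 0.05. Fold changes are on the log2(intensity + 16) scale, which understates those of dim genes. The number of arrays limits the precision: the median SE of a fold change was 0.07 for the members and 0.09 for all genes, and 0.10 and 0.12 for interactions. The pipeline was tested on simulated data.

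The members and gene lists were chosen with earlier results of these data known. Named were members passing any comparison, those with the widest range of group means up to 8, the brightest and dimmest of each particle, members too dim, listed genes that passed, Nfe2l1, Psmb8, Psmb9 and Psmb10; Psmc2, Psmd6, Psmd7, Psmd8, Psmd10 and Psmd14, the proteolytic subunits, Psmb4 and Psmc5 were added after their values were seen. Replicate numbers did not mark pairs: arrays with the same number had a median correlation of deviations of -0.05 over 45 pairs, those with different numbers 0.04 over 90 pairs. The other settings were quantile normalization, centring on the median, offsets of 1 and 64, no dim filter, the mean of a gene's probe sets, array weights, the compared groups alone, the replicate block and single omissions. The mean of a gene's probe sets took in all of them, also those under the dim threshold. Omitting 4 arrays, omitting 3 arrays and a clock covariate (log2 Arntl minus log2 Dbp) were added after the data had been seen. Promoter windows came from RefSeq on GRCm38.p6.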

Additional observations from a re-analysis of the deposited data

Results flagged for a closer look

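The answer to restriction differed between the diets for Psmd13, the 19S lid subunit, by a test of the interaction: the effect on the high-fat diet minus that on the low-fat diet was -0.36 on the log2 scale (limma adjusted p = 0.03). The call was lost in 10 of 24 other settings, among them the mean of its probe sets, which gave -0.12 (0.300). All 3 LF+CR arrays (670 to 751) lay above all 3 LF arrays (559 to 581), while HF+CR (583 to 651) and HF (631 to 648) overlapped.

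The same test set apart Uchl5, the deubiquitinase that docks on the 19S particle, at -0.40 (limma adjusted p = 0.0316). The call was lost in 12 of 24 other settings, among them the replicate block (limma adjusted p = 0.0557) and the mean of its probe sets, which gave -0.22 (0.0861). That mean takes in a probe set above the dim threshold on 0 arrays, so it cannot show whether the call is stable. HF+CR (670.2 to 715) lay below HF (757 to 804), while LF+CR (833 to 941) and LF (704 to 858) overlapped through LF 1.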

How the results depend on the processing

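The fold changes called in the main fit kept their direction under every setting, but the calls were not stable. The direction of genes not called was not followed, and single probe sets other than the one used were not a setting. Of 174 medians over the members, 171 moved by less than 1 SD of the members' mean between mice of a group (0.05). Counts of members called moved as follows. With array weights they were 8 in LF+CR against LF+Ex, 3 in HF+CR against HF (Psmb3, Psmb4 and Psmd7), 1 in HF against LF (Psmd13), 2 in the interaction of restriction with diet and 12 in the F test. Fitting only the compared groups gave 0 in LF+CR against LF, HF+CR against HF, LF+CR against LF+Ex and HF+CR against HF+Ex. Centring on the median gave 0 in HF+CR against HF and HF+CR against HF+Ex and 1 in the F test. Averaging probe sets gave 1 in LF+CR against LF and 0 in HF+CR against HF+Ex and in the interaction. In LF+CR against LF+Ex it kept the count at 4 with other genes (Psmb2, Psmb3, Psma7 and Psmc6, without Psma3 and Psmd13). Of these 4, 3 were higher and 1, Psmc6, was lower. Quantile normalization gave 2 in the interaction. The replicate block gave 0 in HF+CR against HF+Ex and changed no other count of calls by over 1.5 times, and it lost the Uchl5 interaction (limma adjusted p = 0.0557). Without the 4 arrays with pancreatic transcripts (HF+Ex 1, LF+CR 1, LF+Ex 3 and LF 1), the count was 1 in LF+CR against LF+Ex and 0 in the interaction, the F test, LF+CR against LF, HF+CR against HF and HF+CR against HF+Ex. Without LF+CR 2, HF 1 and HF+Ex 3, it was 2 in LF+CR against LF+Ex, 1 in the F test and 0 in the interaction, LF+CR against LF, HF+CR against HF and HF+CR against HF+Ex. The clock covariate gave 2 in HF+CR against HF (Psmb3 and Psmd7) and 4 in the F test. With single arrays left out, counts ran from 0 to 2 in LF+CR against LF, 2 to 4 in LF+CR against LF+Ex, 0 to 1 in HF+CR against HF, HF+CR against HF+Ex and the interaction with restriction, and 2 to 3 in the F test, and stayed at 0 in HF against LF, both running comparisons and their interaction. The fits that leave out arrays or groups have fewer samples; the cause of the other changes was not tested.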

Other observations

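The partner of Psme1 in its activator, Psme2, is read by a probe set that also carries Psme2b, so it was not among the members. That probe set read 1007, 1104 and 1069 in HF+CR livers, against 1212, 1207 and 1101 in HF livers. It read 1300, 1720.1 and 1104 in LF+CR livers, against 1046, 1216 and 1092 in LF livers. LF+CR 2 was the highest array for it, as for Psme1, Psmb8 and Psmb10.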
